A study of Mus musculus with 16 samples.

Results

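The 8 CXC chemokine genes examined were Cxcl1, Cxcl2, Cxcl3, Cxcl5, Cxcl9, Cxcl10, Cxcl11 and Cxcl16, taken by symbol from the 14925 genes with reads counted over annotated 3′-UTRs. They were measured by RNA-immunoprecipitation and sequencing (RIP-seq) with an anti-CPEB4 antibody in bone marrow-derived macrophages (BMDMs), cells grown from mouse bone marrow in medium that supplies M-CSF. The 8 genes hold 11 annotated regions, and each gene is represented by its region with the highest count. Each value is 1 library, since every genotype, treatment and assay was sequenced once.

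WT BMDMs (numbered 76 in the sample titles) and Cpeb4 KO BMDMs (numbered 73) were both of the strain labelled C57BL/6J 129. They were compared without treatment and after 9 h with LPS (lipopolysaccharide, a component of the bacterial outer membrane) at 10 ng/ml. The labels do not say whether the number stands for an animal, a culture or a sample. The cells under 1 number are called a culture here. The study's methods state that the KO cells came from mice that lack Cpeb4 in the whole animal and served as the control of the immunoprecipitation, that is of what antibody and beads recover without CPEB4. The Input is RNA of the lysate, from which ribosomal RNA was depleted per the labels. The mice were adult per the labels, which give no exact age and no sex. Because each genotype has 1 such number, genotype, culture and the share of each parental strain cannot be told apart. No difference below has a replicate check in these libraries or a p-value. The 95% intervals are Poisson intervals for levels and exact conditional intervals for ratios, and they cover counting error only.

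CXC chemokines are small secreted proteins that guide leukocytes through G protein-coupled receptors. Cxcl1, Cxcl2, Cxcl3 and Cxcl5 carry the ELR residues before the CXC motif and recruit neutrophils through Cxcr2, whereas Cxcl9, Cxcl10 and Cxcl11 are induced by interferons and attract activated T cells through Cxcr3. Cxcl16 is made as a transmembrane protein, is shed by Adam10 and binds Cxcr6. CPEB4 binds cytoplasmic polyadenylation elements (CPEs) in 3′-UTRs, and many cytokine mRNAs also carry AU-rich elements (AREs), to which decay factors such as tristetraprolin (Zfp36) bind.

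The 3′-UTRs of the neutrophil chemokines were dense in AUUUA, the pentamer of AREs. Cxcl2 (chr5:90905205-90905909, + strand, 705 bases) held 11 AUUUA matches, and 0.0569% of regions of like length (within 20%) held as many. Cxcl1 (chr5:90892524-90893115, + strand, 592 bases) held 7, as many as 0.476% of like-length regions. Cxcl3 (chr5:90787449-90788086, + strand, 638 bases) held 5 (2.86%), and Cxcl5 (chr5:90760514-90761625, + strand, 1112 bases) held 5 (9.93%). The interferon-inducible genes held fewer. There were 3 matches in Cxcl9 (chr5:92321331-92323798, - strand, 2468 bases), 2 in Cxcl10 (chr5:92346638-92347366, - strand, 729 bases) and 1 in Cxcl11 (chr5:92359544-92360764, - strand, 1221 bases), as many as in 66.3%, 31.9% and 77.3% of like-length regions. Cxcl16 (chr11:70453983-70455403, - strand, 1421 bases) held 2 (57.9%). The AU-rich nonamer UUAUUUAUU was found in Cxcl2 (4 matches), Cxcl1 (2) and Cxcl3 (1), and not in the other 5 regions.

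The windows of 30 bases with the densest AUUUA matches are shown for Cxcl1, Cxcl2 and Cxcl3 and, for comparison, for Cxcl10 and Cxcl11. Sequences are the RNA sense strand read from GRCm38.p6 (mm10), 5′ to 3′, and the capitals mark AUUUA.
Cxcl1, chr5:90892607-90892636, + strand: uccuAUUUAUUUAuguAUUUAUUUAuucca
Cxcl2, chr5:90905328-90905357, + strand: AUUUAUUUAucuauguAUUUAUUUAUUUAu
Cxcl3, chr5:90787636-90787665, + strand: gcaucuuAUUUAauguuuAUUUAauaucaa
Cxcl10, chr5:92346936-92346965, - strand: guaagacuacaaAUUUAaguuuguaaggac
Cxcl11, chr5:92360369-92360398, - strand: ucuuguuuguucAUUUAaaaagacuacgau
Cxcl1 and Cxcl2 each had paired runs of overlapping pentamers in one window, with 4 and 5 matches. The Cxcl3 window had 2 separate matches, and those of Cxcl10 and Cxcl11 had 1. The densest window of Cxcl5, the other neutrophil chemokine, also had 1 and is not shown.

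CPE motifs did not divide the genes in the same way. The search, on the sense strand, used the consensus motif UUUUAU, its longer form UUUUAAU and the still longer UUUUAAAU, together with the variant UUUUACU, the variant UUUUCAU, the longer variant UUUUAAGU and the short variant UUUUGU, all listed in the study's methods. Cxcl11 held 7 matches, Cxcl9 held 6, Cxcl2 held 5, Cxcl1 held 4, Cxcl3, Cxcl5 and Cxcl10 held 3 each, and Cxcl16 held 1. As many were found in 15.03% of like-length regions for Cxcl11, 57.8% for Cxcl9, 10.9% for Cxcl2, 13.4% for Cxcl1, 26.8% for Cxcl3, 48.7% for Cxcl5, 32.2% for Cxcl10 and 88.1% for Cxcl16. The Cxcl11 matches that start at bases 816, 821, 826 and 831 of its region overlap and are not separate sites. The authors' deposited CPE prediction was weak early activation for Cxcl1 and Cxcl9 and repression for Cxcl2, with none listed for the other members. The match nearest upstream of the last poly(A) signal (AAUAAA, or its variant AUUAAA) is shown, with the CPE in capitals, for the 3 genes with the highest and the 1 with the lowest RIP over Input in WT cells after LPS.
Cxcl1, chr5:90892973-90893002, + strand: uucccuuggacaUUUUGUgucuaguuggua
Cxcl3, chr5:90787958-90787987, + strand: uuucuuagacaUUUUAAGUgauuuuuuaaa
Cxcl9, chr5:92321420-92321449, - strand: uguacucuaauUUUUAAUucaaagcaaauu
Cxcl11, chr5:92359892-92359921, - strand: agcuacacaaguUUUUGUcagaauucuuua
The CPE shown ended 97 bases before the last poly(A) signal in Cxcl3, 108 in Cxcl1, 79 in Cxcl9 and 202 in Cxcl11. A match describes the letters of the region and not a bound site.

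**Figure D1:**
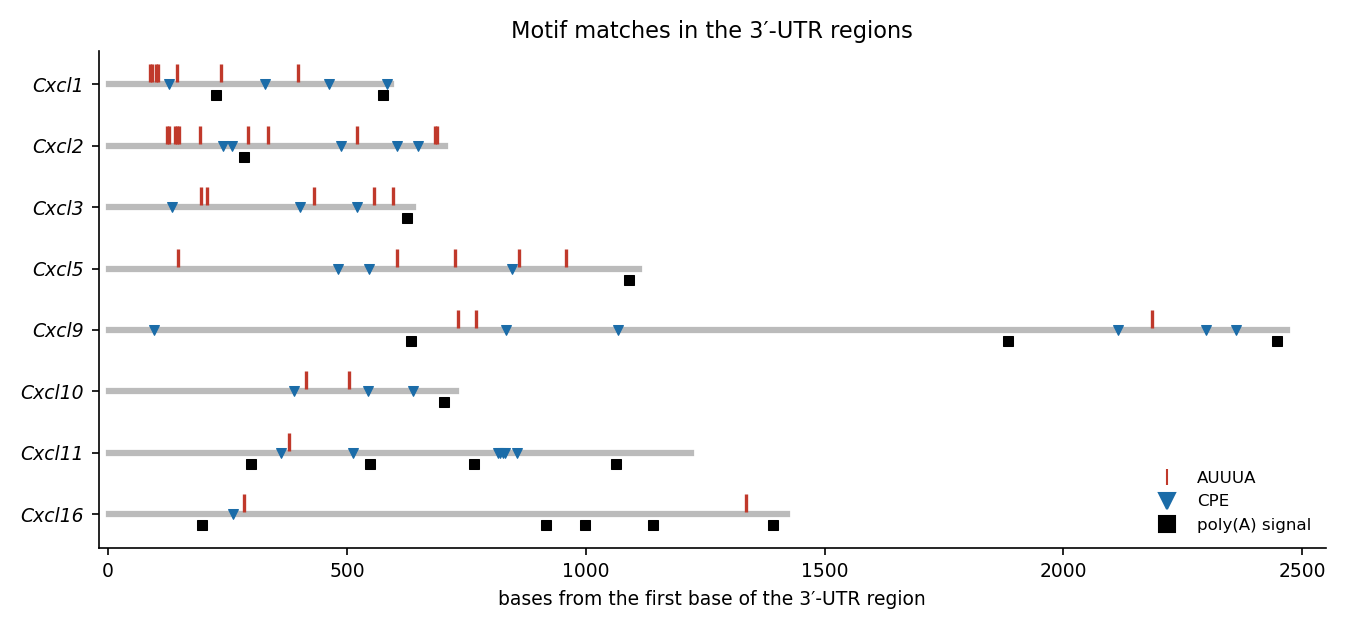
Matches to AUUUA (red ticks), CPE motifs (blue triangles) and poly(A) signals (black squares) along the 3′-UTR region of each CXC chemokine, with the distance in bases from the first base of the region on the x axis. The 11 AUUUA matches of Cxcl2 and the 7 of Cxcl1 cluster in regions of 705 and 592 bases, whereas Cxcl9 has 3 in 2468 bases.

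The annotation (GENCODE M21) places the regions of Cxcl1, Cxcl2, Cxcl3, Cxcl10, Cxcl11 and Cxcl16 inside an exon of their transcript, and those of Cxcl5 and Cxcl9 extend beyond one. The Cxcl10 region overlaps an exon of Art3 on the opposite strand, and the Cxcl11 region lies within Art3 but outside its exons. Whether reads were counted by strand is not given in the sources used here. The 3′-UTR of Art3 itself had 0 reads in 7 of the 8 libraries and 1 read in the untreated KO RIP. The longest run of identical bases between the regions of any pair of the 8 genes was 21 bases (Cxcl9 and Cxcl16), and it was 16 between Cxcl1 and Cxcl2.

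The libraries held from 467696 (KO RIP, untreated) to 2492300 (WT RIP, LPS) 3′-UTR reads. The targeted gene Cpeb4 had 130 CPM (reads scaled to 1000000 3′-UTR reads in the library) in the WT and 52.0 CPM in the KO Input of untreated cells, and 136 and 52.6 CPM after LPS. Whether its counted 3′-UTR lies inside the deleted segment is not given in the sources used here. Cpeb4 mRNA had a log2 ratio of RIP over Input of 2.50 in the WT and 2.79 in the KO after LPS. Macrophage markers (8 of 8 detected) summed to 2539 to 3557 CPM in the Inputs. The markers of T cells, B cells, fibroblasts, dendritic cells and megakaryocytes summed to 1.33 CPM or less per list in each Input. These sums cover the markers in the table, which were 2 of 4 for T cells, 2 of 3 for B cells and 2 of 4 for fibroblasts. For dendritic cells they were 4 of 4 and for megakaryocytes 1 of 3. Of the 8 neutrophil markers 2 were in the table, with S100a8 at 0 reads in every Input and Csf3r higher after LPS (33 and 158 reads in WT cells, 65 and 185 in KO cells). Endothelial markers summed to 7.53 to 70.6 CPM, nearly all from Kdr, and were also higher after LPS. The part of these cells in the chemokine reads was not tested. In bulk RNA, fewer cells of a type and less RNA per cell cannot be told apart.

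Which chemokine mRNAs the macrophages held, and how LPS altered them, was read from the Inputs. Before LPS, Cxcl16 was the most abundant CXC chemokine mRNA per length in both genotypes (167 and 152 CPM per kb, against 34.0 and 22.8 for Cxcl10). The WT Input had 237 CPM (207 to 270) of Cxcl16 and the KO Input 216 CPM (192 to 243). Cxcl10, an interferon-inducible T cell attractant, had 24.8 CPM (WT, 23 reads) and 16.6 CPM (KO, 22 reads). Cxcl2 had 3 and 7 reads, and Cxcl1, Cxcl3, Cxcl5, Cxcl9 and Cxcl11 had 0 reads in both untreated Inputs. For each of these 5 genes, the Poisson interval of 0 reads reaches 3.97 CPM in the WT and 2.78 CPM in the KO. The level of 3 reads, used for the folds below, is 3.23 CPM in the WT and 2.26 CPM in the KO.

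After LPS, 6 of the 7 members with at least 10 reads in the pair were at least 2-fold higher in the Inputs of both genotypes. Over all genes, 14.8% of 8163 were as much higher (and 17.5% as much lower) in the WT, and 13.5% of 8250 were as much higher in the KO. Nothing is read from the count against these shares, because Cxcl1, Cxcl3, Cxcl9 and Cxcl11 had 0 reads before LPS and passed the minimum through the LPS library alone, so that they had to be higher. With at least 50 reads in the pair, 3 members (Cxcl2, Cxcl9 and Cxcl10) were left as higher in the KO. No member was at least 2-fold lower. Cxcl10 had 399 CPM in the WT and 602 CPM in the KO after LPS, log2 changes of 3.95 (3.41 to 4.68) and 5.12 (4.57 to 5.86). Cxcl2, a neutrophil attractant that macrophages release early, had 211 and 112 CPM, changes of 5.62 (4.47 to 8.32) and 4.22 (3.33 to 5.74). These 2 genes had reads before LPS in both genotypes, so their change is measured on both sides.

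The other 4 members of that group started from 0 reads. Their fold sets the LPS count, taken as measured, against 3 reads before LPS. Cxcl9, the interferon-γ-responsive ligand of Cxcr3, had 169 (WT) and 207 (KO) reads after LPS, at least 27.6-fold and at least 60.9-fold higher on this basis. With counting error included, the lower limits of its log2 change were 4.47 (WT) and 5.62 (KO). Cxcl11, a further Cxcr3 ligand, had 116 (WT) and 10 (KO) reads, at least 18.9-fold and at least 2.94-fold higher on this basis. With the counting error of the LPS library included, the lower limits of its log2 change were 3.92 (WT) and 0.98 (KO). Cxcl3 had 63 and 26 reads (at least 10.3-fold and 7.65-fold), and Cxcl1 had 52 and 13 reads (at least 8.49-fold and 3.82-fold). With that counting error included, the lower limits in the KO Input were log2 2.53 for Cxcl3 and 1.43 for Cxcl1.

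Cxcl16 and Cxcl5 stood apart from this pattern. Cxcl16 remained at 219 CPM in the WT and 191 CPM in the KO after LPS, log2 changes of -0.11 (-0.35 to 0.13) and -0.18 (-0.42 to 0.06). Cxcl5, a neutrophil chemokine best known from epithelial cells, had 1 read in each LPS Input and 2 reads or fewer in every RIP. It passed no read minimum and is given no ratio.

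**Figure D2:**
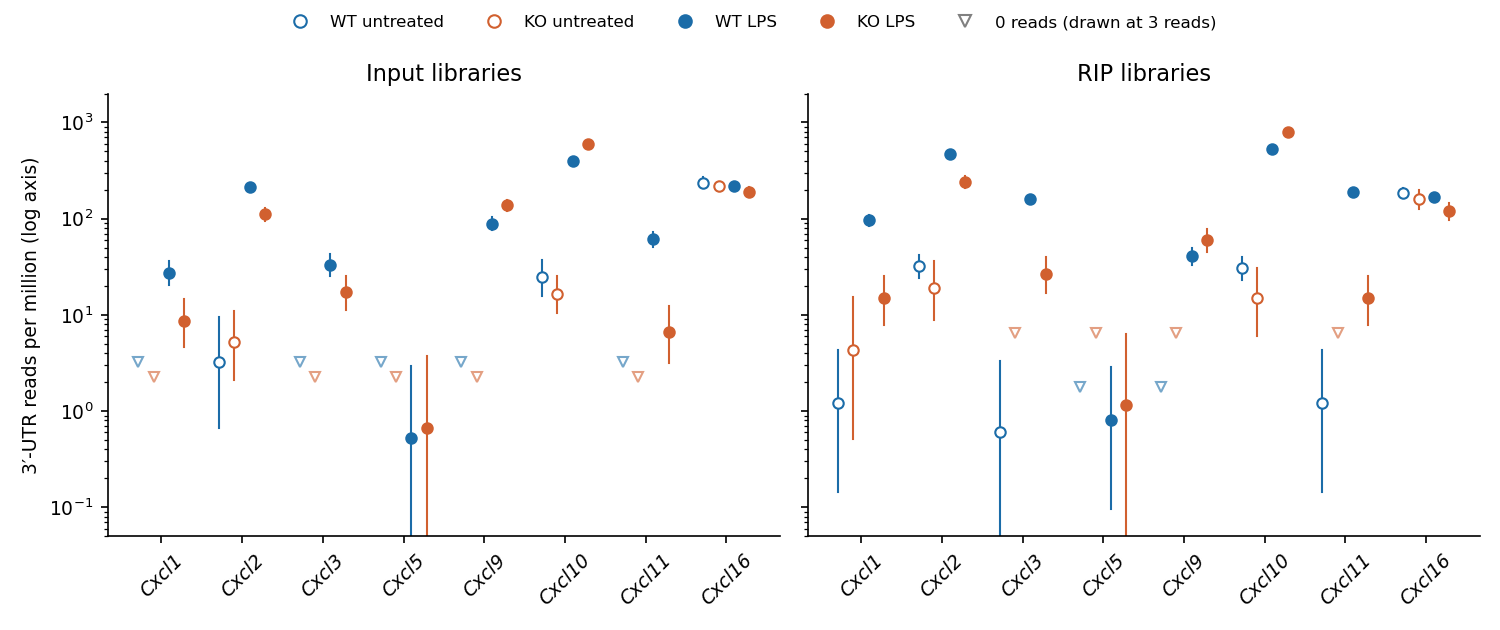
CPM over the 3′-UTR reads (log axis) of the 8 CXC chemokines in the 4 Input libraries (left) and the 4 RIP libraries (right), with bars for 95% Poisson intervals, which run off the axis below for values of 1 read. Open circles are untreated and filled circles LPS libraries, and triangles mark 0 reads at the level of 3 reads. Cxcl16 lies between 119 and 237 CPM in the 8 libraries, and Cxcl1, Cxcl2, Cxcl3, Cxcl9, Cxcl10 and Cxcl11 lie higher after LPS.

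Per kilobase of 3′-UTR, which allows genes to be set side by side, Cxcl10 led in both LPS Inputs, with 547 CPM per kb in the WT and 826 in the KO. Cxcl2 followed with 300 and 159, and Cxcl16 with 154 and 134. In the WT, Cxcl3 (52.0), Cxcl11 (50.1) and Cxcl1 (46.3) had overlapping counting intervals, and the interval of Cxcl9 (36.1, 30.9 to 42.0) overlapped that of Cxcl1 (34.6 to 60.7). In the KO the order below Cxcl16 was Cxcl9 (55.8), Cxcl3 (27.1), Cxcl1 (14.6) and Cxcl11 (5.45). The counting intervals of Cxcl1 and Cxcl11 overlapped there. The intervals of Cxcl3 (17.7 to 39.7) and Cxcl11 (2.61 to 10.0) lay apart in the KO culture, whereas they overlapped in the WT culture.

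The difference between the genotypes was examined first in the Inputs, since the RIPs were made from the same cultures. In untreated cells no member of the 3 with enough reads differed at least 2-fold between the Inputs (2.43% of 7845 genes were as much higher in the WT and 4.79% in the KO). After LPS, Cxcl1 and Cxcl11 were at least 2-fold higher in the WT Input, against 3.21% of 8151 genes. Cxcl11 was 8.42-fold higher (log2 3.07, 2.27 to 4.30), the third highest of the 8151 ratios. The log2 ratio of Cxcl1 was 1.58 (0.77 to 2.66). From replicated RT-qPCR of LPS-treated BMDMs, the study reports Cxcl1 mRNA as unaffected in the Cpeb4 KO and Cxcl2 mRNA as affected. It also counts both among the mRNAs bound by CPEB4 and by tristetraprolin, with target criteria that were not applied here.

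Cxcl2 and Cxcl3 were also higher in the WT Input, by less than 2-fold. The log2 ratios were 0.91 (0.65 to 1.19) for Cxcl2 and 0.91 (0.26 to 1.66) for Cxcl3. Cxcl9 and Cxcl10 lay on the other side, with -0.63 (-0.93 to -0.33) and -0.59 (-0.74 to -0.45), that is with the higher CPM in the KO. Cxcl16 had 0.20 (-0.02 to 0.42), and its interval includes 0. The 7 members therefore ran both ways, with the 3 neutrophil chemokines and Cxcl11 higher in the WT and Cxcl9 and Cxcl10 higher in the KO.

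Set against Cxcl10 of the same library, a ratio into which no library total enters, the Input after LPS had a log2 ratio (WT over KO) of 3.67 (2.85 to 4.90) for Cxcl11, 2.18 (1.35 to 3.27) for Cxcl1, 1.51 (1.21 to 1.82) for Cxcl2 and 1.50 (0.84 to 2.27) for Cxcl3. For Cxcl9 it was -0.03 (-0.37 to 0.30). Cxcl9 and Cxcl10 thus kept nearly one ratio in both cultures, while Cxcl11, which responds to interferon as they do, did not. Cxcl10 was taken as the reference, after the values were seen, because it had the most reads.

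The LPS change itself could be compared between genotypes for the 3 members with reads before and after. For Cxcl2, the Input change had a WT over KO ratio (log2) of 1.40 (-0.53 to 4.22), which passed 2-fold (7.31% of 7294 genes were as much higher), but its interval includes 0, with 3 and 7 reads in the untreated Inputs. For Cxcl10 it was -1.17 (-2.10 to -0.25), at least 2-fold lower in the WT (4.62% of genes). For Cxcl16 it was 0.07 (-0.27 to 0.41).

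What the anti-CPEB4 antibody recovered was read from RIP over Input within each genotype. After LPS, Cxcl1, Cxcl2, Cxcl3 and Cxcl11 were at least 2-fold higher in the WT RIP than in the WT Input, 4 of 7 members against 23.5% of 8767 genes. Cxcl9 was at least 2-fold lower, against 26.9%, and this call was lost under each of the other 3 scalings (-0.62 on the library totals behind the deposited RPKM values, -0.82 with TMM and -0.95 with median of ratios). TMM and median of ratios set each library's scale from the bulk of the genes in place of a read total. In the KO, Cxcl2 and Cxcl11 were also at least 2-fold higher (17.2% of 7861 genes) and Cxcl9 was at least 2-fold lower (12.0%). On the library totals neither Cxcl2 (0.43) nor Cxcl11 (0.45) passed in the KO, and Cxcl11 lacks reads for a minimum of 50.

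Cxcl3, a neutrophil attractant, had 33.2 CPM in the Input and 162 CPM in the RIP of the WT after LPS, a log2 ratio of 2.26 (1.90 to 2.69). In the KO it had 17.3 and 26.4 CPM, 0.62 (-0.27 to 1.48). The intervals of the genotypes did not overlap, under any of the 4 scalings. Cxcl1 had 27.4 and 96.7 CPM in the WT, 1.80 (1.38 to 2.28), and 8.65 and 14.9 CPM in the KO, 0.79 (-0.44 to 2.01), with 13 reads in both KO libraries. Here the intervals overlapped, except on the library totals.

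On 3′-UTR totals, Cxcl2 had nearly the same ratio in both genotypes. It had 211 CPM in the Input and 469 CPM in the RIP of the WT, a log2 ratio of 1.15 (0.99 to 1.32), and 112 and 242 CPM in the KO, 1.11 (0.82 to 1.42). On the library totals the ratios were 1.66 (1.50 to 1.83) and 0.43 (0.13 to 0.73), which lie apart. Cxcl11 had 61.1 and 190 CPM in the WT, 1.63 (1.34 to 1.94), and 6.66 and 14.9 CPM in the KO, 1.13 (-0.14 to 2.51). The KO ratio of Cxcl11 rests on 10 and 13 reads.

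On 3′-UTR totals, the intervals of Cxcl9, Cxcl10 and Cxcl16 overlapped between the WT and the KO. Cxcl10 was slightly higher in the RIP than in the Input, by 0.42 (0.29 to 0.55) in WT cells and by 0.41 (0.26 to 0.55) in KO cells. Cxcl9 had 89.1 CPM in the Input and 40.5 CPM in the RIP of the WT, -1.13 (-1.51 to -0.77), and 138 and 59.7 CPM in the KO, -1.19 (-1.67 to -0.76). Cxcl16 had -0.40 (-0.60 to -0.20) and -0.67 (-1.02 to -0.35). On the library totals the ratios were -0.62 (WT) and -1.87 (KO) for Cxcl9, 0.94 and -0.28 for Cxcl10 and 0.11 and -1.35 for Cxcl16, and the intervals of the 7 members then lay apart. With TMM those of Cxcl3, Cxcl10 and Cxcl16 lay apart, and with median of ratios that of Cxcl3 alone. On the library totals the median RIP over Input of all genes was itself 0.48 in the WT and -0.68 in the KO. The share of all genes with intervals apart was not computed, so nothing is read from these counts. The sign of Cxcl3 in the KO also turned on the library totals, to -0.07. Relative to Cxcl10 of the same library, RIP over Input in the WT was 1.84 (1.45 to 2.29) for Cxcl3 and -1.55 (-1.95 to -1.17) for Cxcl9, so that the order of the members does not rest on the totals.

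**Figure D3:**
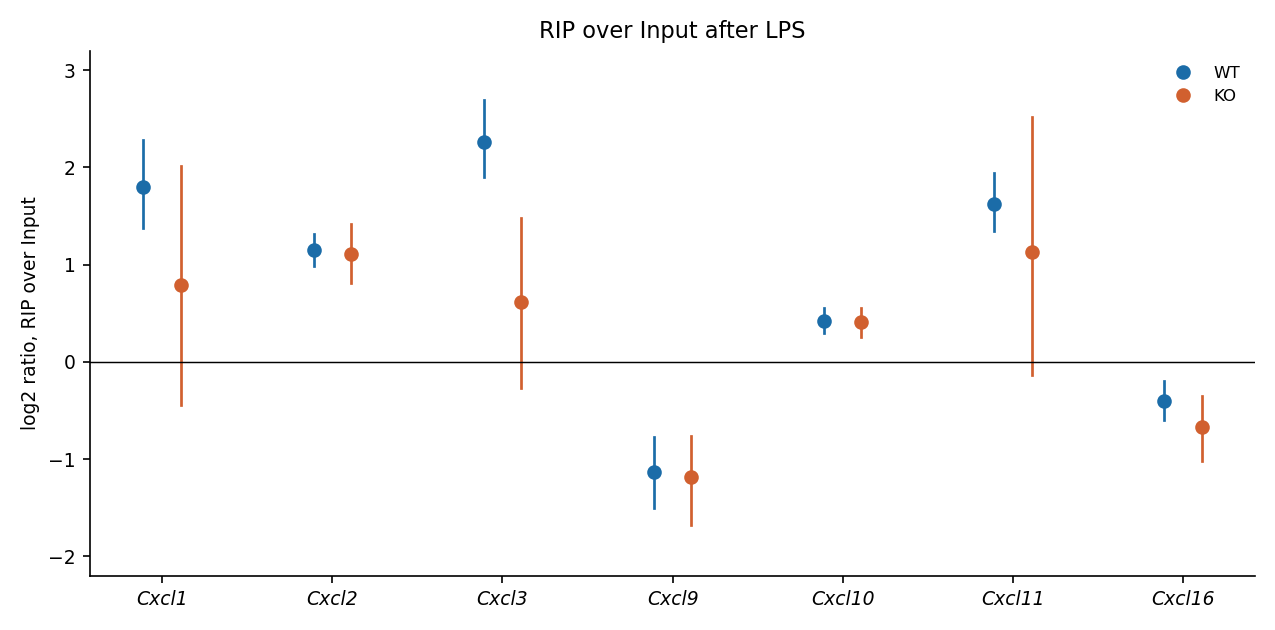
Log2 ratio of RIP over Input after LPS for the 7 CXC chemokines with enough reads, in the WT (blue) and the KO (orange), with 95% counting intervals and 1 library per point. On the 3′-UTR totals drawn here the WT interval (1.90 to 2.69) and the KO interval (-0.27 to 1.48) of Cxcl3 lie apart. The points of Cxcl2, Cxcl9 and Cxcl10 nearly coincide. On library totals the intervals of the 7 members lie apart, where the median of all genes is 0.48 in the WT and -0.68 in the KO.

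Against the motifs, the 4 members at least 2-fold higher in the WT RIP held 7, 11, 5 and 1 AUUUA matches (Cxcl1, Cxcl2, Cxcl3 and Cxcl11) and 4, 5, 3 and 7 CPE matches. The 3 others, Cxcl9, Cxcl10 and Cxcl16, held 3, 2 and 2 AUUUA and 6, 3 and 1 CPE matches. Cxcl9 was lower in the RIP with 6 CPE matches, and Cxcl3 had the highest ratio with 3. With 7 genes of differing length this is a description.

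In untreated cells 3 members had enough reads. Cxcl2 had 3 reads in the WT Input and 54 in the WT RIP, a log2 ratio of 2.94 (1.70 to 5.65), and 7 and 9 reads in the KO, 1.83 (0.27 to 3.53). Both passed 2-fold, as did 25.5% of 8359 genes in the WT and 18.2% of 7708 in the KO. Cxcl10 had 0.27 (-0.43 to 1.08) in WT cells and -0.02 (-1.62 to 1.13) in KO cells. Cxcl16 had -0.36 (-0.61 to -0.10) and -0.42 (-0.82 to -0.06).

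The LPS change in the RIP followed that in the Input in direction. The 6 members higher in the Input were at least 2-fold higher in both RIPs (12.1% of 8901 genes in the WT and 14.1% of 7227 in the KO). Cxcl9 in both RIPs, and Cxcl3 and Cxcl11 in the KO RIP, had 0 untreated reads and had to be higher to pass the minimum, so nothing is read from the count. With at least 50 reads, 3 members were left as higher in the KO RIP. Cxcl3 went from 1 to 403 reads in the WT RIP, a log2 change of 7.08 (5.59 to 13.38), and from 0 to 23 reads in the KO RIP, at least 4.11-fold. Cxcl11 went from 2 to 474 reads in the WT, 6.73 (5.45 to 10.36), and from 0 to 13 in the KO, at least 2.33-fold. Folds from 0 reads again set the LPS count, taken as measured, against 3 reads. With the counting error of the LPS library included, the lower limits in the KO RIP were log2 1.63 for Cxcl3 and 0.71 for Cxcl11. Cxcl1 went from 2 to 241 reads in the WT, 5.75 (4.46 to 9.39). In the KO it went from 2 to 13 reads, 1.32 (-0.34 to 4.99), an interval that includes 0. Cxcl9 had 0 untreated reads in either RIP and 101 and 52 after LPS, at least 22.5-fold and 9.30-fold on the same basis. With counting error included, its lower limits were log2 4.17 (WT) and 2.87 (KO).

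The LPS change of Cxcl2 in the RIP had overlapping intervals in both genotypes, and that of Cxcl10 did not, except on the library totals (4.24 to 5.08 in WT cells, 4.91 to 7.28 in KO cells). Cxcl2 changed by 3.83 (3.46 to 4.28) in WT cells and by 3.51 (2.70 to 4.80) in KO cells, and Cxcl10 by 4.10 (3.72 to 4.56) and 5.55 (4.69 to 7.06). Cxcl16 had -0.16 (-0.37 to 0.06) in the WT, which turns positive under each of the 3 other scalings, and -0.43 (-0.87 to 0.02) in the KO.

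**Figure D4:**
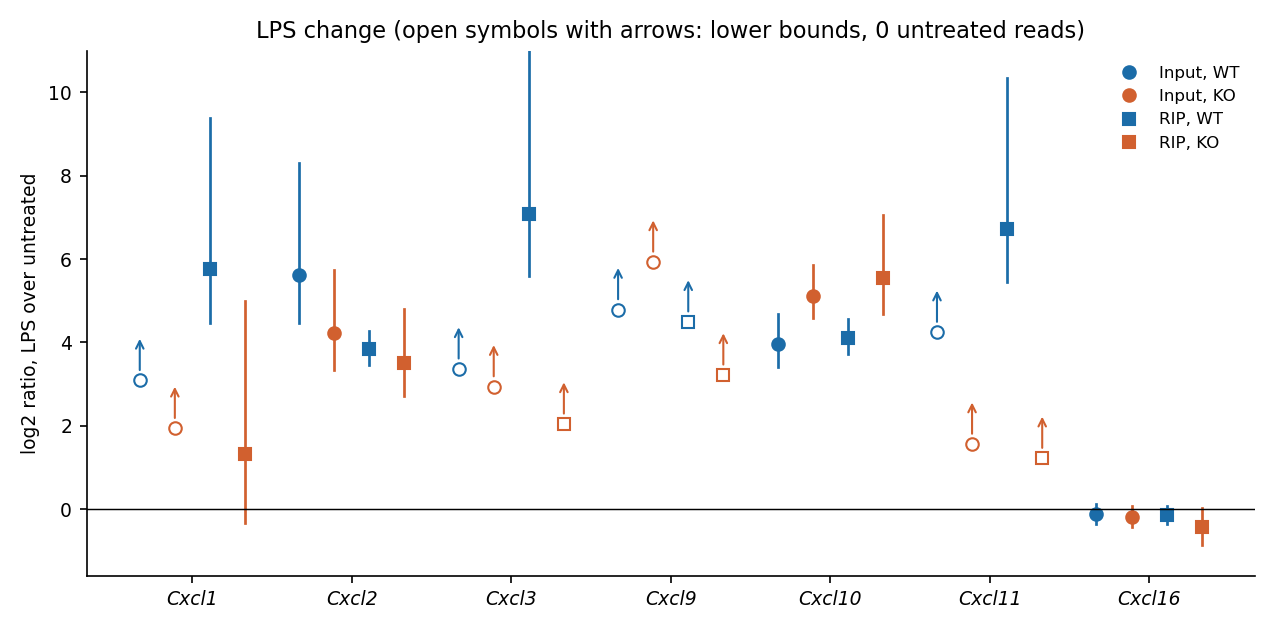
Log2 ratio of LPS over untreated in the Inputs (circles) and RIPs (squares) of the WT (blue) and the KO (orange), with 95% counting intervals (that of Cxcl3 in the WT RIP runs past the axis, to 13.38). Open symbols with arrows are lower bounds for genes with 0 untreated reads. Cxcl16 lies near 0 in the 4 comparisons, and the points of the other 6 members lie above it.

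The WT and KO RIPs were then set against each other. After LPS, Cxcl1, Cxcl3 and Cxcl11 were at least 2-fold higher in the WT RIP, 3 of 7 members against 9.71% of 8310 genes. Cxcl11, with 474 reads (WT) and 13 reads (KO), was 11.9-fold higher (log2 3.57, 2.88 to 4.59), the highest of the 8310 ratios. Cxcl1 was 6.04-fold higher (2.60, 1.90 to 3.63) and Cxcl3 5.89-fold higher (2.56, 2.01 to 3.29). Cxcl2 had 0.95 (0.74 to 1.17). It passed 2-fold under the other 3 scalings, at 1.24 with TMM, 1.11 with median of ratios and 2.09 on library totals. Cxcl16 had 0.47 (0.16 to 0.80). Cxcl9 had -0.57 (-1.05 to -0.05) and Cxcl10 had -0.58 (-0.71 to -0.44). The interval of Cxcl9 included 0 with TMM (-0.76 to 0.25) and with median of ratios (-0.89 to 0.12). No member was at least 2-fold lower, as 17.5% of genes were. In untreated cells none of the 3 members with enough reads passed 2-fold (9.60% of 8064 genes were as much higher and 14.2% as much lower).

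Subtracting the Input ratio separated both kinds of difference. For Cxcl11, 3.07 of the 3.57 log2 units in the RIP were also present in the Input, and the input-corrected ratio was 0.49 (-0.92 to 1.81). For Cxcl2 the RIP and Input ratios were nearly equal and the corrected ratio was 0.04 (-0.31 to 0.38). For Cxcl9 and Cxcl10, higher in the KO in both assays on 3′-UTR totals, it was 0.06 (-0.52 to 0.67) and 0.02 (-0.18 to 0.21). Cxcl16 had 0.27 (-0.11 to 0.67).

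Cxcl1 and Cxcl3 were at least 2-fold higher after this correction, against 11.6% of 7575 genes. Cxcl1 had 1.01 (-0.29 to 2.34), and its interval includes 0. Cxcl3 had 1.65 (0.71 to 2.64), or 3.14-fold, with 63 and 26 reads in the Inputs and 403 and 23 in the RIPs, and it ranked 226 of 7575. Of the 7 members it was the 1 whose interval excluded 0 on 3′-UTR totals. With median of ratios the intervals of 3 members (Cxcl3, Cxcl10 and Cxcl16) lay above 0, with TMM those of 5 (Cxcl1 and Cxcl2 too), and on the library totals those of the 7. The median corrected ratio of all genes was 0.13, 0.24 and 1.09 under these 3 scalings. The share of all genes with an interval above 0 was not computed, so nothing is read from these counts. Relative to Cxcl10 of the same libraries the corrected ratio of Cxcl3 was 1.63 (0.74 to 2.57), against 0.99 (-0.19 to 2.22) for Cxcl1 and 0.02 (-0.37 to 0.40) for Cxcl2. The Input of Cxcl3 was itself 0.91 higher in the WT, less than the 2.56 in the RIP. The median corrected ratio was 0.27 for the 7 members and -0.10 for all genes.

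On the library totals, every RIP ratio of WT over KO after LPS is higher, by 1.14 in the median of all genes, and corrected ratios are higher by 1.20. The 7 members then passed 2-fold after correction, as did 53.4% of all genes, and Cxcl9 and Cxcl10 changed sign in the RIP (to 0.57 and 0.56). The order of the members, and the difference between Cxcl3 and Cxcl2, are not altered by a total. Before LPS the corrected ratio was 1.11 (-1.03 to 4.21) for Cxcl2 (14.7% of 7201 genes were as much higher and 17.4% as much lower), 0.29 (-1.08 to 2.10) for Cxcl10 and 0.06 (-0.38 to 0.54) for Cxcl16, and each interval includes 0.

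**Figure D5:**
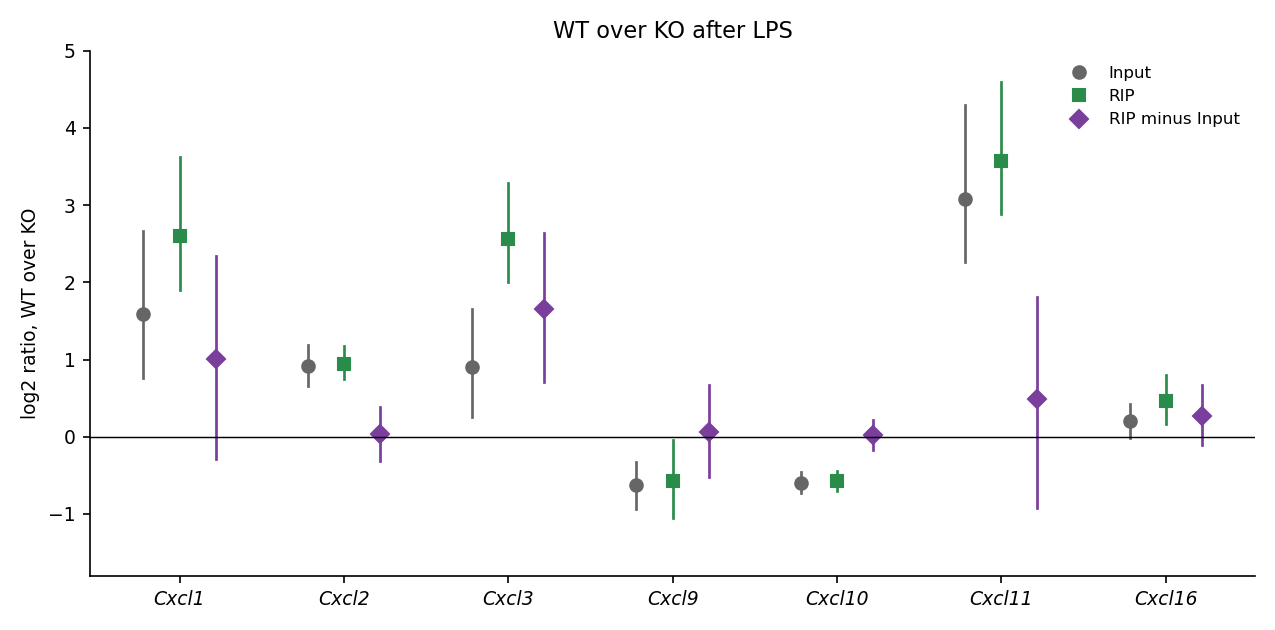
Log2 ratio of WT over KO after LPS in the Input (grey circles), in the RIP (green squares) and in the RIP minus the Input (purple diamonds) for the 7 CXC chemokines with enough reads, with 95% counting intervals. For Cxcl11 the Input (3.07) and the RIP (3.57) are both high, and for Cxcl3 the difference of 1.65 has an interval above 0 on the 3′-UTR totals drawn here.

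Other genes of the chemokine pathway were followed from a list of pathway genes. Of 7 further CXC ligands 6 were in the table, and Pf4 (platelet factor 4) and Cxcl14 had enough reads. Pf4 had 21 and 75 reads in the WT Input and 20 and 69 in the KO Input before and after LPS, log2 changes of 0.76 and 1.56. Cxcl14 had 34 and 36 reads in WT cells, -0.95, and 36 and 24 in KO cells, -0.75. Of 8 receptors 5 were in the table. Cxcr4, which binds CXCL12, was at least 2-fold lower after LPS in the Inputs of both genotypes, with 131 and 1 reads in WT cells and 227 and 5 in KO cells (17.5% and 21.2% of all genes were as much lower). Cxcr2 and Cxcr3, the receptors of the chemokines described here, had 3 reads or fewer in every library, and Cxcr6 was not found by symbol. The sheddases Adam10 and Adam17 were within 2-fold of their untreated level in both Inputs.

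Of 12 genes of transcription and interferon signalling, 10 had enough reads in the Inputs. Nfkb1, Nfkbiz, Irf7 and Stat2 were among those at least 2-fold higher after LPS in both genotypes, and the interferon-γ receptor Ifngr1 was at least 2-fold lower. Nfkbiz, a nuclear cofactor of NF-κB, had log2 changes of 2.97 in the WT and 2.39 in the KO. None of the 10 differed at least 2-fold between the WT and KO Inputs after LPS, where 3.21% of all genes were as much higher and 2.43% as much lower.

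Among 6 ARE-binding and decay factors, the RNase gene Zc3h12a was at least 2-fold higher after LPS in both Inputs (2.55 in the WT and 1.90 in the KO). Zfp36l1 and Zfp36l2 were at least 2-fold lower (-2.26 and -2.91 in WT cells, -2.04 and -3.16 in KO cells). Zfp36, which encodes tristetraprolin, had 0.71 and 0.89. None of the 6 differed at least 2-fold between the Inputs of the genotypes after LPS, against the same shares of all genes. In the Input-corrected ratio of the RIPs after LPS, 1 of the 6, Zfp36l1 (1.59), was at least 2-fold higher in the WT and 0 were lower. Over all genes, 11.6% were as much higher and 20.9% as much lower. In the other lists Irf9 (1.13) and Ifngr1 (2.08) were as much higher, and Pf4 (-1.18), Rela (-1.51) and Irf7 (-1.27) as much lower.

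Promoter sequence (250 bases before to 50 after the start site, RefSeq, GRCm38.p6) was at hand for 5 of the 8 genes, Cxcl1, Cxcl2, Cxcl3, Cxcl9 and Cxcl10. It was searched on both strands for an NF-κB consensus, which 4.51% of 32851 promoters held, and for the ISRE core of 2 GAAA runs set 2 bases apart, which 3.44% held. Cxcl1, Cxcl2 and Cxcl3 each held an NF-κB match in the same letters, found on both strands of one site, Cxcl10 held 2 NF-κB matches and 1 ISRE core, and Cxcl9 held neither. For each gene with a match, 1 NF-κB match is shown, in capitals, and for Cxcl10 also the ISRE core. Cxcl9, without a match, was also at least 2-fold higher after LPS. A link of the matches to the LPS change was not tested.
Cxcl1 NF-κB, chr5:90891164-90891193, + strand: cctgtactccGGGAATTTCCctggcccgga
Cxcl2 NF-κB, chr5:90903792-90903821, + strand: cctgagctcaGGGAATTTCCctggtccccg
Cxcl3 NF-κB, chr5:90786018-90786047, + strand: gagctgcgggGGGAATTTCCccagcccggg
Cxcl10 NF-κB, chr5:92348973-92349002, - strand: cggtttacagGGGACTTCCCtcgggttgcg
Cxcl10 ISRE core, chr5:92349083-92349112, - strand: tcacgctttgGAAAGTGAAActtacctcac
The NF-κB match starts at -71 bases from the start site in Cxcl1, -97 in Cxcl2, -73 in Cxcl3 and -103 in the Cxcl10 match shown.

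Over the 8 libraries, Cxcl9 and Cxcl10 were each other's nearest member in the pattern of log2 CPM (Pearson r = 0.953), while Cxcl11 was most like Cxcl3 (r = 0.971) and Cxcl1 (r = 0.965). Outside the family, the genes most like each member were Met for Cxcl1 (0.971), Sipa1l1 for Cxcl2 (0.990), Tma16 for Cxcl3 (0.989), Fscn1 for Cxcl9 (0.997), AA467197 for Cxcl10 (0.998), Ttc39b for Cxcl11 (0.986) and Galnt2 for Cxcl16 (0.973). The libraries share cultures and treatment, so these values describe a pattern over 8 points, 4 of them with LPS.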

How the data were processed

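RIP-seq libraries of 1 WT and 1 Cpeb4 KO culture of BMDMs were used. The 16 samples are 8 libraries run on lanes 7 and 8, summed in 1 column by the authors. According to the methods of the study, reads were aligned to mm10, duplicates were removed and reads over Ensembl 3′-UTRs were counted by the authors (Bowtie2 2.2.2 and MACS 1.4.2 per the submitters' processing notes). The deposited counts are raw read counts per 3′-UTR, identical in the 4 tables. The deposited RPKM values divide them by region length and by a larger library total, 1714630 to 3866559, of which the 3′-UTR reads were 27.3% to 70.1%. The tables also hold the authors' own fold changes, p-values and peak scores, which were not used. Isoform regions overlap, so that reads can be counted more than once, and 3762 of the 30622 rows with a symbol repeat the coordinates of another row. A further 495 rows without a symbol, 0.902% to 1.04% of the reads, were left out of totals.

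Counts were scaled to the 3′-UTR reads of each library, and log2 ratios were taken after adding 1 read, with intervals from the raw counts. The intervals of input-corrected ratios are exact conditional intervals of the odds ratio over 4 libraries, and those relative to Cxcl10 are normal where 4 libraries enter. A gene was called at a 2-fold difference with at least 10 reads in the pair. Pairs in which neither library had more than 3 reads have no ratio, and a fold against 0 reads is set against 3 reads per library. With 1 library per group no test across samples can be made. The scripts were tested on simulated data. The text names the 8 members, Cpeb4, genes of fixed pathway and marker lists (1 gene of the pathway lists is not reported here), and the most alike gene of each member by Pearson r (at least 100 reads). The members and lists were chosen with earlier results of these data known. The alternatives were library totals of the RPKM, TMM (edgeR 4.0.16), median of ratios (DESeq2 1.42.0), 0.1 reads added, 50 reads or no minimum, the longest or the summed regions of a gene, and totals without repeated rows. Computation used Python 3.11.15 with scipy 1.17.1 and pysam 0.24.0, and R 4.3.3.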

Additional observations from a re-analysis of the deposited data

Results flagged for a closer look

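Some comparisons ran in opposite directions in the groups set side by side, each with 1 library per value, and none of the differences was tested. In the Input, the log2 ratio of WT over KO was -0.49 (untreated) and 0.91 (LPS) for Cxcl2, where the untreated value rests on 3 and 7 reads. For Cxcl10 it was 0.57 (untreated) and -0.59 (LPS) in the Input. In the RIP, Cxcl10 had 0.87 untreated, from 51 and 7 reads, and -0.58 after LPS. RIP over Input of Cxcl10 in untreated cells was 0.27 in the WT and -0.02 in the KO, and both intervals include 0.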

How the results depend on the processing

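No paired analysis was possible because each genotype, treatment and assay has 1 library, and no replicate could be left out. Of the recomputed counts of members past 2-fold, 249 stayed within 1.5 times the first count and 21 did not. With library totals, RIP over Input had 1 member lower in the untreated KO, 0 lower in the WT after LPS, and 0 higher and 2 lower in the KO after LPS. On the same totals 3 (untreated) and 5 (LPS) members were higher in the WT RIP than in the KO RIP, and 2 and 7 after Input correction. With TMM or median of ratios, 0 members (no longer Cxcl9) were lower in RIP over Input of the WT after LPS. With TMM or 0.1 reads added, 1 (Cxcl10) was higher in the untreated WT RIP over the KO RIP. With at least 50 reads, 3 members were higher after LPS in the KO Input and 3 in the KO RIP, 0 (untreated) and 1 (LPS) higher in RIP over Input of the KO, 0 higher in the untreated corrected ratio, and 0 higher and 0 lower in the ratio of the Input LPS changes. With no minimum, 2 were higher in RIP over Input of the untreated KO and 1 was lower in the untreated WT RIP over the KO RIP.

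No member value past 2-fold changed sign under these alternatives. Of the values of single members, 671 moved less than their counting interval and 41 moved more. The corrected ratio of Cxcl3 after LPS ran from 1.65 to 2.85. Relative to Cxcl10, an alternative chosen after seeing the data, 16 of 30 values lay inside the counting interval and 14 outside. The share of all genes higher in the WT RIP after LPS was 9.71% (17.5% lower) on 3′-UTR totals, 54.2% (2.11% lower) on library totals, 17.9% (11.6%) with TMM and 13.8% (13.7%) with median of ratios. Depth limits Cxcl1 and Cxcl11 in the KO (10 to 13 reads per LPS library) and 5 members in untreated cells.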
